A study of Capra hircus with 20 samples.

Results

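The M4 vs. M2 comparison set the hypothalamus of 5 goats aged 120 days (M4) against that of 5 goats aged 60 days (M2). These 10 libraries were chosen by the stage in their labels, out of 20 libraries that also cover D1 (1 day) and M6 (180 days), and all 21071 genes with deposited values were considered. The goats were female Jining grey goats kept under shared feeding conditions and killed on the same day, with no treatment and no genetic change named for either stage. Each goat gave 1 strand-specific, rRNA-depleted RNA-seq library from its hypothalamus. The 2 stages differ in age, so every difference below is a difference between 2 sets of animals and not a course followed in the same animal.

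The hypothalamus is the part of the brain that controls the pituitary. Its GnRH neurons release gonadotropin-releasing hormone in pulses, and puberty starts when these pulses become frequent. Neurons of the arcuate nucleus that make kisspeptin, neurokinin B and dynorphin drive the pulses, while other hypothalamic neurons release oxytocin, vasopressin and the hormones that control growth, stress and thyroid function. Jining grey goats mature early, passing from the start of puberty to sexual maturity between about these 2 ages, and the comparison asks which genes differ across that interval.

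Expression was measured as FPKM, the fragments of a gene scaled by its length and by the size of the library. FPKM summed to between 297889 and 354265 in the M2 libraries and to between 260199 and 353941 in the M4 libraries. No counts per gene were at hand, so the number of reads behind a value is unknown and the spread between goats sets the precision. The read totals per library, which the study lists, were not set against the library measures below. Pearson's correlation of log2(FPKM + 0.1) across the genes tested was at a median of 0.883 between 2 goats of one stage (20 pairs) and 0.892 between an M2 and an M4 goat (25 pairs), and genes within a library are not independent. Genes with at least 0.1 FPKM numbered 15977 ± 129.8 (SD, n = 5) per library at M2 and 15744 ± 95.9 at M4 (two-sided exact permutation p = 0.0238, 0.0476 after Benjamini-Hochberg adjustment over 4 library measures, against a smallest possible p of 0.00794). Of the other 3 measures, the share of FPKM held by the most abundant gene was 7.23% to 23.9% at M2 and 2.54% to 7.18% at M4 (exact permutation p = 0.00794, adjusted 0.0317). The number of genes with at least 1 FPKM (exact permutation p = 0.0635, adjusted 0.0847) and the summed FPKM (0.302 before and after adjustment) did not pass. The most abundant gene was LOC102181504 in 8 of the 10 libraries, KLHDC1 in M2-3 and COX1 in M4-1. Whether the fragments counted at LOC102181504 and KLHDC1 come from these genes or from other transcripts of the same loci was not tested.

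Several libraries stood apart, and many of the results below are also given without them. Marker genes of the cerebral cortex summed to 195 FPKM in M4-1 and to between 1.199 and 27.9 in the other 9 libraries. SLC17A7, the vesicular glutamate transporter of cortical neurons, was at 68.02 FPKM in M4-1 and at most 0.602 FPKM elsewhere. Markers of the striatum summed to 199 FPKM in M2-4 against 11.6 to 31.9 in the others. The 8 markers of the thalamus summed to 266 FPKM in M4-2 against 23.7 to 48.4 in the others, and TCF7L2, a transcription factor of thalamic neurons, was at 86.3 FPKM there and at most 21.1 FPKM elsewhere. In M2-3, KLHDC1 reached 84503 FPKM, which was 23.9% of the library's summed FPKM, against 0.836% to 4.54% in the others. Markers of the hypothalamus varied widely between libraries. The 27 measured transcription factors of its regions summed to 24.6 to 58.8 FPKM at M2 and 14.3 to 28.1 FPKM at M4, and KISS1 and GHRH were at or near 0 in all 10 libraries. The neurosecretory hormones and receptors summed to 44.3 to 97.5 FPKM at M2 and 16.5 to 513 FPKM at M4, highest in M4-4, and the genes of puberty and GnRH control to 48.1 to 366 and 46.6 to 262 FPKM, highest in M2-4. More or fewer cells of a type and more or less RNA per cell cannot be told apart in such bulk tissue, and what the differences in sampled tissue contribute to the results was not tested.

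**Figure D1:**
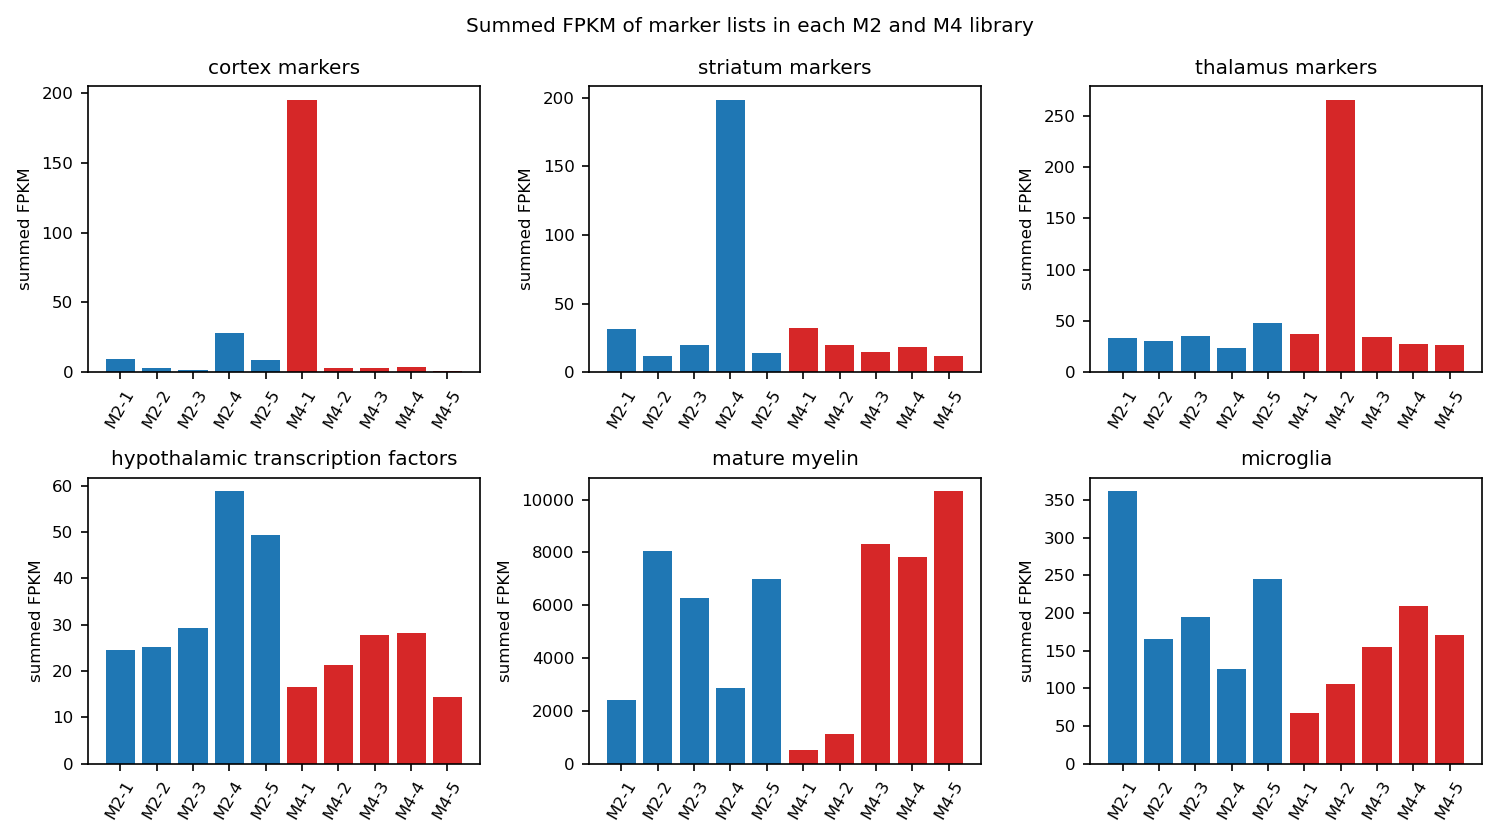
Summed FPKM of the markers of cortex, striatum, thalamus, hypothalamic regions, mature myelin and microglia in each of the 10 libraries, with M2 in blue and M4 in red. The cortex sum of M4-1 (195), the striatum sum of M2-4 (199) and the thalamus sum of M4-2 (266) each exceed those of the other 9 libraries.

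No gene passed the thresholds for a differentially expressed gene (DEG) between M4 and M2. A DEG needed an adjusted p under 0.05 in limma and a log2 fold change of 1 or more in size, fitted on log2(FPKM + 0.1) with all 20 libraries and the 4 stages as groups. Of the 16771 genes tested, 0 were DEGs (0% higher and 0% lower at M4), and the smallest Benjamini-Hochberg adjusted p was 0.338. An unadjusted p under 0.05 was found for 1455 genes (8.68%), of which 663 (3.95%) were higher and 792 (4.72%) lower at M4. With quantile normalization the balance turned, with 787 higher and 665 lower, and among genes with a mean of at least 1 FPKM it was 607 higher and 587 lower. About 1 in 20 genes would have such a p if no gene differed. Genes with such a p numbered 854 with only the M2 and M4 libraries. They numbered 628 without M2-1 and M2-3, the 2 M2 libraries of the lowest mapping rates. The 5 values of one stage all lay above or all below the 5 of the other for 182 genes (1.09%), of which 90 (0.537%) were higher and 92 (0.549%) lower at M4. The median log2 fold change of all genes tested was -0.02. Other fits called between 0 and 3 DEGs. With a pseudocount of 1, ATP13A5 was the only DEG. Without M2-5, the DEGs were MYO3A, MYO18B and COL6A5, all lower at M4. Without M4-1, M4-2 and M2-4, which among the M2 and M4 libraries were highest in cortex, thalamus and striatum markers, the only DEG was MAX. Its FPKM was 24.9, 18.8, 21.3, 25.02 and 23.3 in M2-1 to M2-5 and 44.3, 20.8, 6.80, 9.604 and 10.03 in M4-1 to M4-5. The D1 and M6 libraries stayed in this fit, and striatum markers summed to 745 FPKM in D1-4 and 372 FPKM in M6-2.

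The genes on the 2 sides of the comparison differed in level. Mean FPKM over the 10 libraries had a median of 16.1 among the 663 genes with an unadjusted p under 0.05 that were higher at M4, of 2.52 among the 792 that were lower, and of 5.08 among all genes tested. The median absolute log2 fold change was 0.61 for the higher genes and 1.10 for the lower genes. A log2 fold change of 1 or more in size was found for 96 (14.5%) of the higher genes and 447 (56.4%) of the lower genes. The median standard error was 0.23 for the higher genes and 0.44 for the lower genes, and genes chosen by their p need a larger fold change where the standard error is larger.

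**Figure D2:**
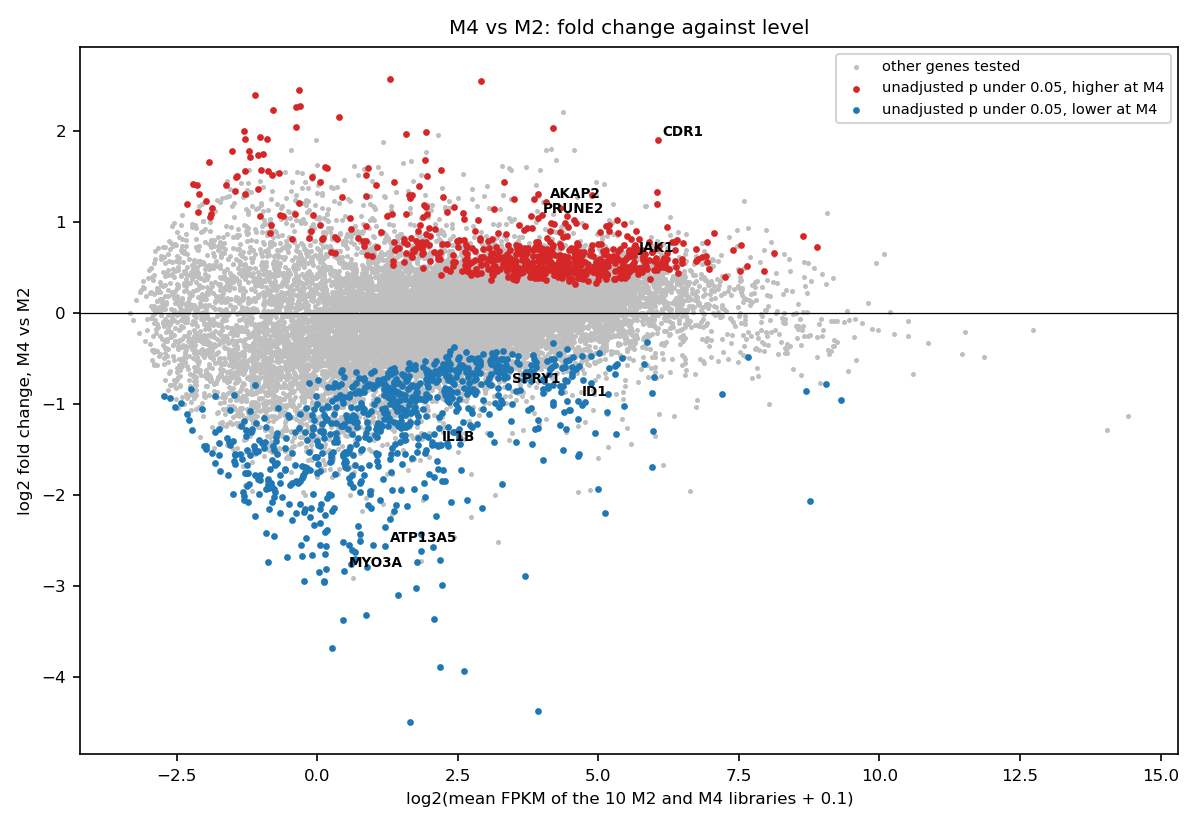
Log2 fold change of each of the 16771 genes in M4 vs. M2 (vertical) against log2 of its mean FPKM over the 10 libraries plus 0.1 (horizontal). The 663 genes with an unadjusted p under 0.05 that were higher at M4 (red) lie at a median of 16.1 FPKM and the 792 that were lower (blue) at 2.52 FPKM, and the named points are 9 of the 24 leading genes.

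The leading genes that were higher at M4 are the 12 named genes with the smallest unadjusted p in that direction and a mean of at least 1 FPKM. Their adjusted p ranged from 0.338 to 0.450 in limma, so none passed the test. PRUNE2, a large protein abundant in nervous tissue (chromosome 8, 52501819 to 52803356, build ARS1.2), had the smallest p of them. Its FPKM was 5.54, 13.2, 11.6, 11.1 and 8.93 in M2-1 to M2-5 and 25.4, 18.5, 19.4, 18.7 and 19.1 in M4-1 to M4-5. Every M4 library was above every M2 library, with a log2 fold change of 1.05 (standard error 0.22, limma adjusted p = 0.338). BECN1 encodes Beclin 1, which starts the formation of autophagosomes (chromosome 19, 42483195 to 42494069). Its FPKM was 13.4, 16.5, 11.2, 17.3 and 20.2 at M2 and 54.96, 21.5, 31.04, 29.1 and 25.6 at M4, M4-1 was highest, and the groups did not overlap. The log2 fold change of BECN1 was 0.99 (standard error 0.22, limma adjusted p = 0.338), and without the 3 libraries highest in cortex, striatum and thalamus markers it was 0.92. VTA1, a cofactor in the sorting of membrane proteins to multivesicular bodies, was at 7.05, 13.8, 10.8, 15.4 and 14.4 FPKM at M2 and 40.9, 24.3, 21.95, 17.1 and 18.5 FPKM at M4. The VTA1 groups did not overlap, and the log2 fold change of 0.97 (standard error 0.23) became 0.78 without these 3 libraries. GORASP2, a protein that links the stacks of the Golgi apparatus, was at 3.16 to 7.92 FPKM at M2 and 8.23 to 13.2 FPKM at M4.

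UBE2D3, a ubiquitin-conjugating enzyme, was at 32.3 ± 8.73 FPKM (SD, n = 5) at M2 and 51.1 ± 4.96 FPKM at M4, with no overlap. USP12, a deubiquitinase, was at 5.92 ± 1.09 and 10.4 ± 2.04 FPKM, where M4-5 at 7.02 FPKM lay within the M2 range. ZHX1, a zinc finger and homeobox repressor (chromosome 14, 65469268 to 65492684), was at 22.2, 24.9, 17.6, 25.99 and 27.5 FPKM at M2 and 50.99, 30.3, 41.4, 43.4 and 35.2 FPKM at M4. No ZHX1 value of M2 reached the lowest of M4, and the log2 fold change was 0.76 (standard error 0.18, limma adjusted p = 0.384). JAK1, a tyrosine kinase of cytokine receptors, had a log2 fold change of 0.62, ANKH, an exporter of pyrophosphate and ATP, of 0.67, and MRPS10, a protein of the mitochondrial ribosome, of 0.82, all without overlap.

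CDR1 and AKAP2 had the largest fold changes of these 12. CDR1, a neuronal gene on chromosome X (6635509 to 6638619) whose locus is known for a circular RNA made from the opposite strand, was at 58.2, 13.3, 23.8, 14.5 and 28.4 FPKM at M2 and 83.01, 41.4, 217, 126 and 58.03 FPKM at M4. M2-1 at 58.2 FPKM overlapped with the lower M4 libraries, and the log2 fold change was 1.89 (standard error 0.45, limma adjusted p = 0.384). Whether the fragments counted at CDR1 come from this gene or from the circular RNA was not tested. AKAP2, which anchors protein kinase A, was at 11.7, 13.8, 6.68, 7.32 and 9.005 FPKM at M2 and 14.9, 36.6, 34.4, 18.6 and 14.4 FPKM at M4, with M4-2 and M4-3 highest and no overlap. Its mean at D1 was 10.9 FPKM and at M6 9.42 FPKM, close to the M2 mean of 9.70. FGF1, a fibroblast growth factor named after its values were seen for its large difference, was at 6.66, 13.6, 10.1, 3.82 and 2.64 FPKM at M2 and 15.1, 20.1, 46.2, 46.6 and 17.3 FPKM at M4. The FGF1 groups did not overlap, and the log2 fold change was 2.03 (standard error 0.55, limma adjusted p = 0.452), with a mean of 12.8 FPKM at D1 and 34.4 FPKM at M6.

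**Figure D3:**
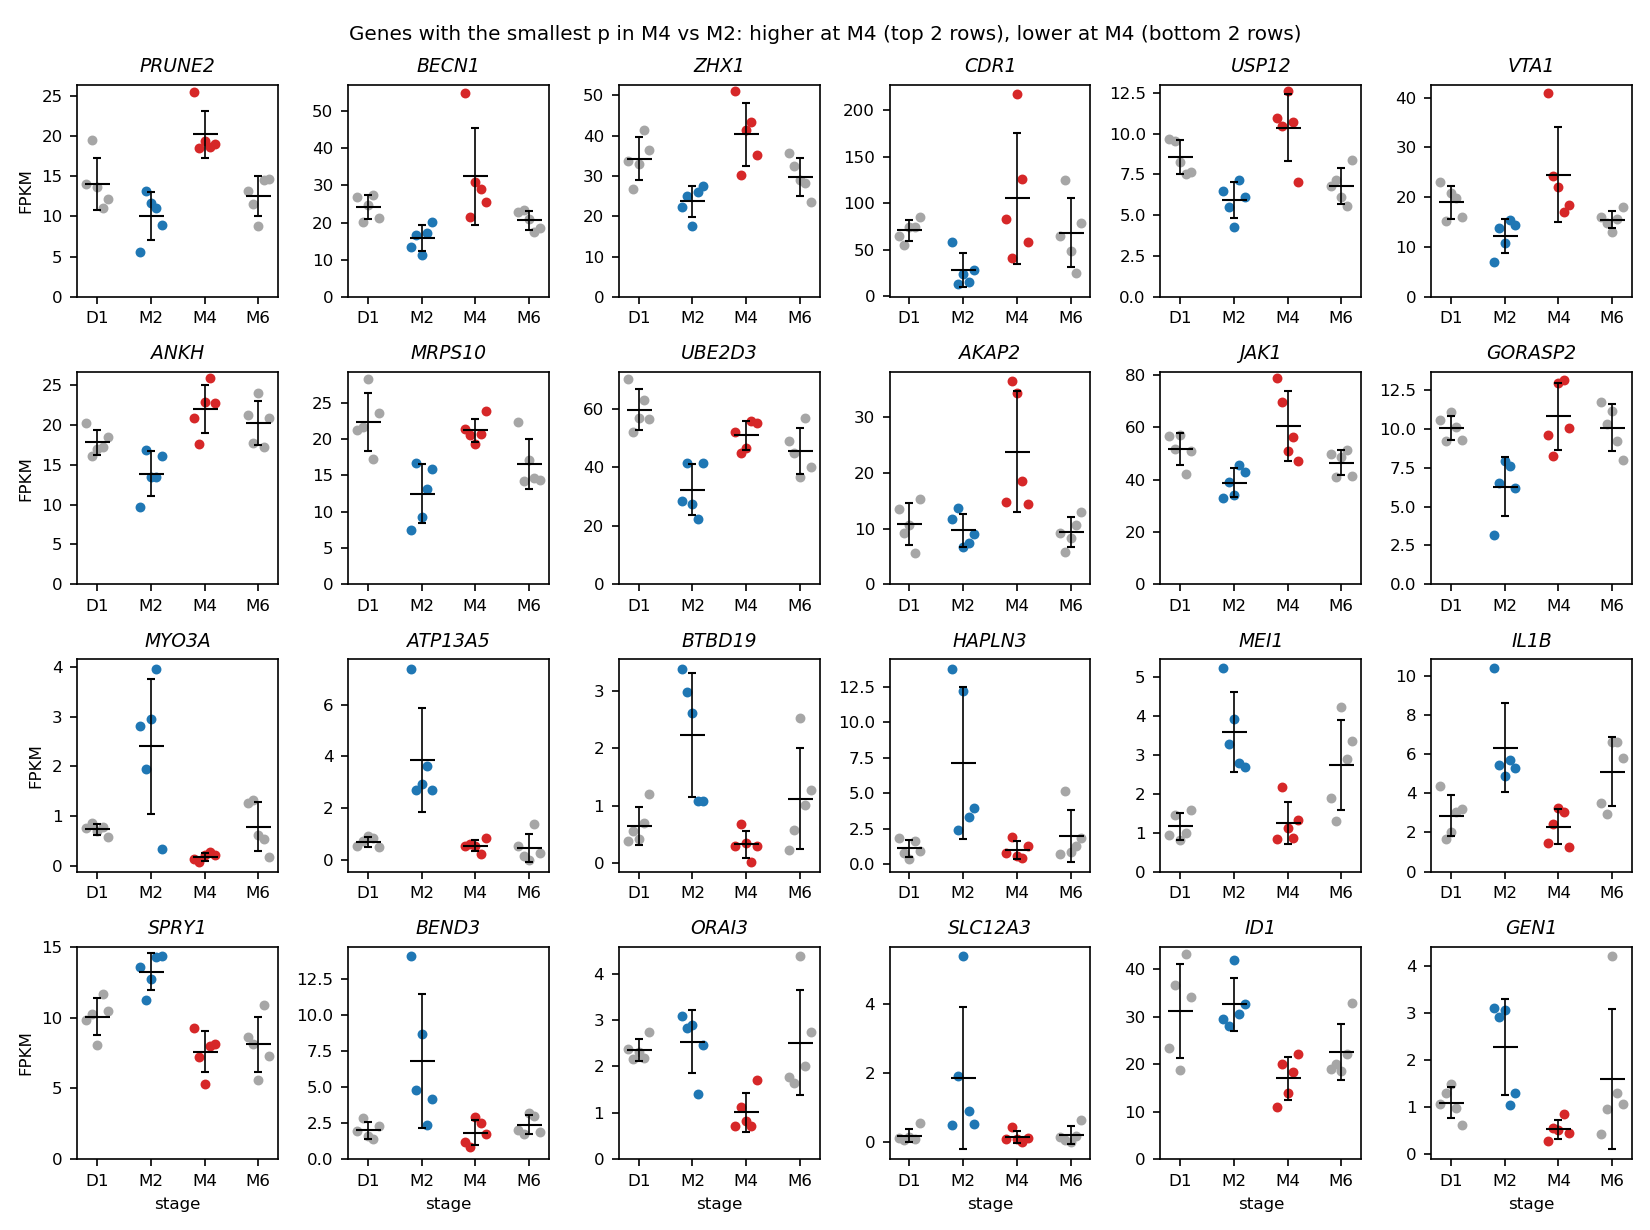
FPKM of the 12 leading genes higher at M4 (top 2 rows) and the 12 lower at M4 (bottom 2 rows) in each library, by stage, with M2 in blue, M4 in red, and D1 and M6 in grey. Points are goats, the horizontal line is the mean and the bars are the SD (n = 5). The M2 and M4 points do not overlap in 10 of the 12 genes in each direction, against 1.09% of all genes tested. These genes were chosen by their small p in the same libraries, so this separation follows largely from the choice.

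Among the 12 leading genes that were lower at M4, 10 had a log2 fold change beyond -1, and their adjusted p in limma ranged from 0.338 to 0.389. MYO3A, an actin motor with a kinase domain known from the inner ear (chromosome 13, 25866449 to 26025667), had the smallest p of all genes. Its FPKM was 2.82, 1.95, 2.95, 3.95 and 0.356 in M2-1 to M2-5 and 0.1399, 0.0862, 0.227, 0.283 and 0.232 in M4-1 to M4-5. M2-5 was the lowest M2 library and still above every M4 library. The log2 fold change was -2.83 (standard error 0.51, unadjusted p = 2.06e-05, limma adjusted p = 0.338), and -3.37 with an adjusted p of 0.00272 in limma without M2-5. MYO18B and COL6A5, named because that fit called them, also had their lowest M2 value in M2-5. MYO18B, an unconventional myosin, was at 4.08, 3.52, 3.81, 1.33 and 0.0822 FPKM at M2 and 0.3198, 0.13003, 0.167, 0.34002 and 0.0979 FPKM at M4, and COL6A5, a collagen chain, was at 2.38, 2.96, 3.46, 0.662 and 0.00302 FPKM at M2 and 0.276, 0.109, 0.0131, 0.0237 and 0.102 FPKM at M4. In both genes M2-5 lay below every M4 library and the other 4 M2 libraries above. Mean FPKM of MYO3A was 0.743 at D1 and 0.794 at M6.

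ATP13A5, an ion-transporting ATPase known as a marker of brain pericytes (chromosome 1, 73775765 to 73891961), was at 7.37, 2.71, 2.93, 3.64 and 2.703 FPKM at M2 and 0.5598, 0.633, 0.535, 0.221 and 0.845 FPKM at M4. The M4 values were at most 0.845 FPKM and the M2 values at least 2.703 FPKM. The mean was 0.715 FPKM at D1 and 0.472 FPKM at M6, nearer to M4 than to M2. The log2 fold change was -2.56 (standard error 0.53, limma adjusted p = 0.338), and -1.58 with an adjusted p of 0.0254 in limma at a pseudocount of 1. HAPLN3, which links proteoglycans to hyaluronan (chromosome 21, 19746184 to 19765509), was at 13.7, 2.41, 12.2, 3.34 and 3.98 FPKM at M2 and 0.813, 1.93, 0.534, 0.407 and 1.297 FPKM at M4. M2-1 and M2-3, the 2 M2 libraries with the lowest mapping rates, were highest, and the log2 fold change of -2.56 became -1.77 without them. BTBD19, a BTB-domain protein, was at 1.08 to 3.38 FPKM at M2 and 0.01905 to 0.676 FPKM at M4, with a log2 fold change of -2.51.

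IL1B, the cytokine interleukin 1 beta (chromosome 11, 46178464 to 46186246), was at 10.4, 5.44, 4.88, 5.67 and 5.27 FPKM at M2 and 1.48, 2.43, 3.25, 3.02 and 1.27 FPKM at M4. M2-1 was highest, and no M4 library reached the lowest M2 library. The log2 fold change was -1.46 (standard error 0.33, limma adjusted p = 0.384), and the mean was 2.87 FPKM at D1 and 5.0996 FPKM at M6. Its neighbour IL1A, interleukin 1 alpha (chromosome 11, 46120083 to 46131126), named after its values were seen, was at 2.07, 2.38, 3.08, 2.97 and 0.777 FPKM at M2 and 0.794, 0.582, 0.732, 0.778 and 0.373 FPKM at M4, where only M2-5 lay within the M4 range (log2 fold change -1.56, limma adjusted p = 0.472). SPRY1, an inhibitor of growth factor signalling, was at 13.6, 11.2, 12.7, 14.3 and 14.4 FPKM at M2 and 9.26, 7.21, 5.33, 8.03 and 8.14 FPKM at M4. The SPRY1 groups did not overlap, with a log2 fold change of -0.81 (standard error 0.19, limma adjusted p = 0.384). ID1, which blocks basic helix-loop-helix transcription factors, was at 32.5 ± 5.54 FPKM (SD, n = 5) at M2 and 17.01 ± 4.56 FPKM at M4, again without overlap.

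MEI1, known from meiotic recombination, was at 3.58 ± 1.04 FPKM (SD, n = 5) at M2 and 1.26 ± 0.541 FPKM at M4, and GEN1, which cuts DNA junctions left by recombination, was at 2.28 ± 1.02 and 0.524 ± 0.209 FPKM. BEND3, a repressor of transcription, was at 2.35 to 14.1 FPKM at M2 and 0.829 to 2.91 FPKM at M4 and overlapped. ORAI3, a calcium channel subunit, was at 1.395 to 3.097 and 0.705 to 1.703 FPKM and overlapped through M2-4 and M4-5. SLC12A3, a sodium chloride cotransporter, was at 0.498 to 5.39 and 0.0233 to 0.4496 FPKM without overlap, with M2-3 highest. The 24 leading genes had an unadjusted p under 0.05 in each of the 23 alternatives in which they were tested. They were chosen by their small p in the same libraries, so the alternatives are not a separate test of them. CRSP-1 and ARHGAP36, named after their values were seen, also did not overlap. CRSP-1, a peptide that acts on the calcitonin receptor, was at 7.57, 1.26, 0.649, 12.7 and 7.75 FPKM at M2 and 0, 0, 0, 0.446 and 0.154 FPKM at M4, and ARHGAP36, a GTPase-activating protein, was at 7.02, 3.88, 2.25, 17.3 and 9.53 FPKM at M2 and 1.25, 0.951, 0.944, 0.566 and 0.827 FPKM at M4. Their limma adjusted p was 0.472 for both.

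The genes that control GnRH neurons had a log2 fold change below 0 in 19 of 22 members tested, and M2-4 held the highest values of several. Of 25 genes in the list of puberty and GnRH control, 22 were tested, 0 were DEGs, 3 were lower at M4 with an unadjusted p under 0.05 and 0 higher, against 4.72% lower and 3.95% higher over all genes. The median log2 fold change was -0.48, against -0.02 for all genes tested, and -0.31 without the 3 libraries highest in cortex, striatum and thalamus markers, where 0 members had an unadjusted p under 0.05 in limma. In the fit without M2-1 and M2-3 the median was -0.92, and 3 members were lower at such a p. GNRH1, the precursor of gonadotropin-releasing hormone, was at 1.19, 0, 0, 14.6 and 0.165 FPKM in M2-1 to M2-5 and was listed at 0 in all 5 M4 libraries. M2-4 held most of it, and the unadjusted limma p was 0.0684 (adjusted 0.587), or 0.3605 without M2-4, M4-1 and M4-2. TAC3, the precursor of neurokinin B, was at 0.619, 0.367, 0.4099, 25.3 and 5.15 FPKM at M2 and 0.631, 0.155, 0, 0 and 0.249 FPKM at M4. M2-4 and M2-5 were high and the other 3 M2 libraries overlapped with M4, with a log2 fold change of -3.02 (standard error 1.36, limma adjusted p = 0.562), which was -2.08 without M2-4 and -2.65 without M2-5. KISS1, the precursor of kisspeptin, was listed at 0 in all M2 libraries and in 4 of the 5 M4 libraries, and reached 0.0735 FPKM in M4-5, so it was not tested. PDYN, the precursor of dynorphin, was at 1.02, 2.52, 3.51, 100.4 and 13.8 FPKM at M2 and 6.83, 12.8, 1.13, 52.7 and 1.27 FPKM at M4. One library in each stage, M2-4 and M4-4, was far above the rest, and the log2 fold change was -0.18 (standard error 1.43), or 0.79 without M2-4.

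Receptors and enzymes of this list also varied between goats. ESR1, estrogen receptor alpha, was at 3.18, 0.483, 1.73, 0.366 and 0.346 FPKM at M2 and 0.0361, 0.253, 3.001, 3.18 and 0.403 FPKM at M4, and M2-1, M4-3 and M4-4 were highest. The ESR1 log2 fold change was -0.31 (standard error 0.80, limma adjusted p = 0.9196), and it turned to 0.14 without M2-1. CYP19A1, the aromatase that makes estradiol, was at 15.1, 0, 0, 3.02 and 0.699 FPKM at M2, highest in M2-1, and at most 0.0677 FPKM at M4 (limma adjusted p = 0.569). NKX2-1, a transcription factor that specifies the ventral hypothalamus, was at 1.53, 0.152, 0.0272, 2.23 and 2.26 FPKM at M2 and 0.0296, 0, 0, 0.243 and 0.222 FPKM at M4. M2-1, M2-4 and M2-5 were above 1 FPKM and the other 7 libraries at most 0.243 FPKM, and the log2 fold change was -2.20 (standard error 1.03, limma adjusted p = 0.569).

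**Figure D4:**
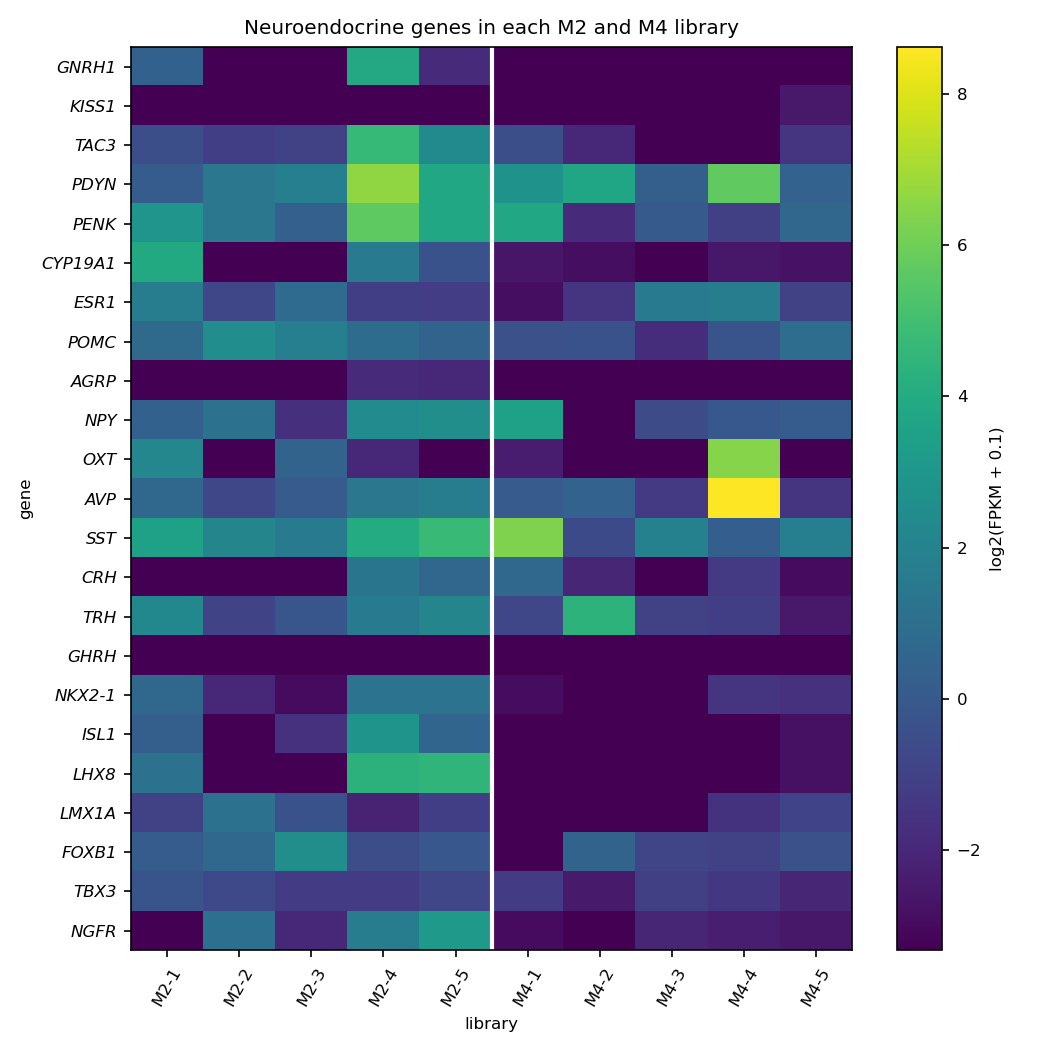
Log2(FPKM + 0.1) of 23 neuroendocrine and regional genes (rows) in M2-1 to M2-5 and M4-1 to M4-5 (columns), with lighter colours for higher values and the white line between the stages. High values sit in single libraries, as GNRH1 at 14.6 FPKM in M2-4, OXT at 86.3 FPKM in M4-4 and TRH at 20.7 FPKM in M4-2.

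The transcription factors that mark hypothalamic regions had the lowest median of the lists with more than 3 members tested. Of 27 measured, 23 were tested, 0 were DEGs, and 5 (ISL1, LMX1A, LHX8, FOXB1 and TBX3) were lower at M4 with an unadjusted p under 0.05, against 4.72% of all genes. Their median log2 fold change was -1.10, with 21 of 23 below 0. It was -0.88 without the 3 libraries highest in cortex, striatum and thalamus markers and -0.39 at a pseudocount of 1, which weighs the low FPKM of these genes less. Such a p was found for 1 of the 23 without those 3 libraries and for 3 without M2-1 and M2-3. ISL1, a factor of arcuate and other ventral forebrain neurons, was at 1.11, 0, 0.221, 7.06 and 1.38 FPKM at M2, was listed at 0 in M4-1 to M4-4 and was at 0.0461 FPKM in M4-5 (log2 fold change -2.95, standard error 1.03, limma adjusted p = 0.508). LHX8, a factor of cholinergic neurons of the basal forebrain, was at 2.17, 0, 0, 20.3 and 22.1 FPKM at M2 and, like ISL1, above 0 only in M4-5 among the M4 libraries. M2-4 and M2-5 held most of the LHX8 signal. LMX1A, a factor of caudal hypothalamic and midbrain neurons, was at 0.408, 2.199, 0.697, 0.124 and 0.364 FPKM at M2 and 0, 0, 0, 0.232 and 0.424 FPKM at M4, so its highest library was M2-2. FOXB1, a factor of the mammillary region, was at 1.03, 1.49, 5.88, 0.599 and 0.8398 FPKM at M2 and 0, 1.29, 0.469, 0.397 and 0.684 FPKM at M4, highest in M2-3. TBX3, which is needed in arcuate neurons, had the fifth smallest p and is named after its values were seen, at 0.767, 0.515, 0.318, 0.319 and 0.486 FPKM at M2 and 0.3402, 0.0792, 0.381, 0.281 and 0.141 FPKM at M4.

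Of the 19 growth factor genes, all tested, 4 (IGFBP3, NGFR and NTF3 among them) were lower at M4 with an unadjusted p under 0.05 and 0 were higher, against 4.72% and 3.95% of all genes, and the median log2 fold change was -0.39. NGFR, the low-affinity neurotrophin receptor, was at 0, 1.97, 0.153, 3.16 and 8.51 FPKM at M2 and 0.0294, 0, 0.141, 0.0991 and 0.0698 FPKM at M4, highest in M2-5. IGFBP3, which binds insulin-like growth factors, was at 0.513 to 4.27 FPKM at M2 and 0.0918 to 1.03 FPKM at M4, and NTF3, neurotrophin 3, was above 0.1 FPKM only in M2-1 and M2-3.

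All 23 genes of feeding peptides and receptors were tested, and the median log2 fold change was -0.21. At an unadjusted p under 0.05, 1 (4.35%) was lower at M4 and 0 were higher, against 4.72% and 3.95% of all genes. POMC, the precursor of melanocortins that restrain feeding, was at 1.67, 5.63, 3.51, 1.74 and 1.31 FPKM at M2 and 0.682, 0.707, 0.191, 0.755 and 1.799 FPKM at M4. M4-5 overlapped with the 3 lowest M2 libraries, and the log2 fold change was -1.66 (standard error 0.55, limma adjusted p = 0.499). NPY, which stimulates feeding, was at 1.21, 2.09, 0.206, 5.26 and 5.79 FPKM at M2 and 11.3, 0, 0.554, 0.866 and 0.997 FPKM at M4, highest in M4-1, the library high in cortex markers. Its log2 fold change of -1.03 was -1.92 without M4-1. AGRP, an antagonist of melanocortins, was at most 0.181 FPKM at M2 and was listed at 0 in all M4 libraries. PCSK2, a convertase that processes such precursors, and BDNF, a neurotrophin, had positive log2 fold changes of 1.28 and 1.52, with their highest values in M4-1 and M4-2. Without these 2 libraries and M2-4 the log2 fold changes were 0.69 and 0.74.

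Neurosecretory hormones showed no member with an unadjusted p under 0.05 in 18 tested, and a median log2 fold change of -0.25. OXT and AVP, the precursors of oxytocin and vasopressin, were dominated by M4-4. OXT was at 4.47, 0, 1.28, 0.162 and 0 FPKM at M2 and 0.0965, 0, 0, 86.3 and 0 FPKM at M4, and AVP was at 1.48, 0.4802, 0.974, 2.57 and 3.15 FPKM at M2 and 0.973, 1.24, 0.302, 392 and 0.246 FPKM at M4. Their log2 fold changes were 0.01 (standard error 1.97) and 0.64 (standard error 1.81), and without M4-4 they were -1.89 and -1.20. OXT also turned negative without any of M2-2, M2-4 and M2-5. SST, somatostatin, which restrains growth hormone, was at 11.3, 4.23, 2.86, 16.05 and 26.96 FPKM at M2 and 79.2, 0.537, 3.68, 1.07 and 3.51 FPKM at M4, with M4-1 highest, and its log2 fold change of -1.26 was -2.36 without M4-1. TRH, which stimulates thyrotropin release, was at 4.58, 0.454, 0.815, 2.96 and 4.23 FPKM at M2 and 0.476, 20.7, 0.417, 0.369 and 0.0745 FPKM at M4, with M4-2 highest, and its log2 fold change of -1.19 was -2.33 without M4-2. CRH, which starts the stress response, was at 0, 0, 0, 2.36 and 1.43 FPKM at M2 and 1.52, 0.144, 0, 0.307 and 0.0276 FPKM at M4, and its log2 fold change of -0.18 turned to 0.55 without M2-4. PENK, the precursor of enkephalins, was at 7.498, 2.57, 1.16, 50.5 and 13.7 FPKM at M2 and 14.02, 0.176, 0.935, 0.373 and 1.44 FPKM at M4, with M2-4 highest, and its log2 fold change was -2.52 (standard error 1.26, limma adjusted p = 0.577), or -1.81 without M2-4. GHRH was listed at 0 in all 10 libraries. Among 10 measured pituitary markers only 3 were tested, and CGA, the shared subunit of gonadotropins and thyrotropin, was at 0.738, 0, 2.12, 0.502 and 0.802 FPKM at M2 and above 0 only in M4-1 at M4, at 0.134 FPKM (limma adjusted p = 0.4495).

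Microglial genes had a log2 fold change below 0 in all 11 members tested. The median log2 fold change was -0.57, and 3 members (C1QA, C1QB and C1QC) had an unadjusted p under 0.05, against 4.72% lower over all genes, while 0 were DEGs. These 3 genes encode the chains of complement C1q and lie side by side on chromosome 2 between 5770491 and 5797051. C1QB was at 41.4, 23.1, 24.7, 18.98 and 29.7 FPKM in M2-1 to M2-5 and 5.14, 13.3, 9.34, 18.6 and 15.1 FPKM in M4-1 to M4-5. The C1QB groups did not overlap, though M4-4 came close to M2-4, and the log2 fold change was -1.23 (standard error 0.31, limma adjusted p = 0.3902). C1QA was at 9.099, 6.05, 19.1, 6.205 and 11.6 FPKM at M2 and 4.03, 2.86, 3.59, 8.04 and 5.54 FPKM at M4, with an overlap through M4-4. C1QC was at 23.7, 15.2, 19.2, 11.1 and 21.8 FPKM at M2 and 3.004, 9.11, 8.35, 13.6 and 13.9 FPKM at M4, with an overlap through M4-4 and M4-5. TMEM119, a marker of resident microglia, was at 7.13 ± 3.21 FPKM (SD, n = 5) at M2 and 4.16 ± 1.85 FPKM at M4 (limma adjusted p = 0.579). The summed FPKM of the 11 markers was 362, 165, 195, 125 and 245 at M2 and 67.1, 106, 155, 209 and 170.5 at M4, so M2-1 was highest and M4-1 lowest. The median became -0.30 without the 3 libraries highest in cortex, striatum and thalamus markers and -0.30 without M2-1 and M2-3, with 3 and 1 members at an unadjusted p under 0.05.

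Of 12 genes of endothelium and mural cells, 3 had an unadjusted p under 0.05, all lower, against 4.72% of all genes, 11 of 12 were below 0, and the median log2 fold change was -0.40. PDGFRB, the receptor that marks pericytes, was at 11.8, 3.89, 11.3, 5.13 and 6.14 FPKM at M2 and 2.09, 3.65, 4.79, 4.62 and 2.42 FPKM at M4 (log2 fold change -1.04, standard error 0.32, limma adjusted p = 0.495). CLDN5, a tight junction protein of the blood-brain barrier, was at 36.5, 14.2, 91.1, 20.7 and 22.3 FPKM at M2 and 9.26, 18.9, 12.8, 17.6 and 16.6 FPKM at M4, with M2-3 highest. ESAM, an adhesion molecule of endothelium, had a log2 fold change of -0.95 (standard error 0.36). Without M2-1 and M2-3 the median of the list was -0.08 and 0 members had an unadjusted p under 0.05 in limma. Among 9 genes of meninges and fibroblasts, COL3A1, a fibrillar collagen, was at 6.75, 6.61, 45.9, 4.62 and 6.36 FPKM at M2 and 3.72, 1.64, 4.22, 3.304 and 4.69 FPKM at M4, and the list's median of -0.56 became -0.02 without M2-1 and M2-3. HBBC, the juvenile beta globin of goats, was at 6.63, 6.11, 41.3, 1.001 and 2.897 FPKM at M2 and 0.276, 0.994, 0, 0.527 and 0.1701 FPKM at M4. Its groups did not overlap, though M2-4 and M4-2 nearly met, and the log2 fold change was -3.93 (standard error 1.14, limma adjusted p = 0.472). The other 3 tested erythroid genes had no unadjusted p under 0.05 in limma, and the median of the list was -0.43.

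The 15 genes of mature myelin summed to 2393, 8039, 6257, 2857 and 6975 FPKM in M2-1 to M2-5 and 529, 1110.4, 8303, 7821 and 10319 FPKM in M4-1 to M4-5. M4-1 and M4-2 were lowest and M4-5 highest, so M4 spanned the M2 range at both ends. No member had an unadjusted p under 0.05, and the median log2 fold change of -0.47 became 0.67 without the 3 libraries highest in cortex, striatum and thalamus markers. CLDN11, a tight junction protein of myelin, had the smallest p of the list and was at 119 to 439 FPKM at M2 and 22.6 to 466 FPKM at M4 (limma adjusted p = 0.754), and its log2 fold change, below 0 with all libraries, was 0.22 without these. The 12 genes of oligodendrocyte progenitors had no member at an unadjusted p under 0.05 and a median of -0.48, which was -0.0044 without these 3 libraries. OLIG1, a factor of that lineage, was at 53.9 ± 16.9 FPKM (SD, n = 5) at M2 and 32.5 ± 15.3 FPKM at M4. Astrocyte genes had a median of -0.18 (0.07 without them), ependymal cilia genes of -0.28, tanycyte genes of -0.13 and choroid plexus genes of 0.31, each with no member at an unadjusted p under 0.05. BCAN, a proteoglycan of the perineuronal net, was lower at M4 with 45.2, 42.2, 64.3, 30.8 and 43.9 FPKM at M2 and 12.6, 14.4, 36.5, 38.8 and 29.8 FPKM at M4 (log2 fold change -0.89, limma adjusted p = 0.508), and the other 7 genes of that list had no unadjusted p under 0.05. So 12.5% of its 8 genes were lower at such a p, against 4.72% of all genes, and the median was -0.04. No member had such a p without M4-1, M4-2 and M2-4, or without M2-1 and M2-3.

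Heat shock genes, mostly cytosolic chaperones, were the list with the highest median. Of 11 heat shock genes tested, 4 (HSP90AA1, HSPD1, HSP90AB1 and DNAJA1) were higher at M4 with an unadjusted p under 0.05, 0 were lower, against 3.95% and 4.72% of all genes, and the median log2 fold change was 0.55. HSP90AA1, an abundant inducible chaperone, was at 178, 452, 296, 430.1 and 492 FPKM at M2 and 711, 458, 502, 622 and 603 FPKM at M4. M2-1 and M2-3 were lowest, and the log2 fold change was 0.72 (standard error 0.26, limma adjusted p = 0.509). HSPD1, a chaperone that works in mitochondria, was at 16.01 to 29.2 FPKM at M2 and 22.5 to 59.9 FPKM at M4, with M4-1 highest. HSP90AB1 and DNAJA1, the constitutive HSP90 and its partner of the HSP40 family, had log2 fold changes of 0.74 and 0.70. The median of the list was 0.05 without M2-1 and M2-3, the 2 M2 libraries of the lowest mapping rates, where 0 members had an unadjusted p under 0.05 in limma, and 2 had one without M4-1, M4-2 and M2-4. Among 17 chaperones and stress genes of the endoplasmic reticulum, PDIA6 (log2 fold change 0.40) and DNAJB9 (0.59) were higher and CRELD2 (-0.89) lower with an unadjusted p under 0.05. This was 11.8% higher and 5.88% lower, against 3.95% and 4.72% of all genes. Without M2-1 and M2-3, 0 were higher and 1 lower at such a p, and without M4-1, M4-2 and M2-4, 1 and 1. CRELD2, a disulfide isomerase, was at 6.86, 9.898, 7.69, 9.99 and 5.905 FPKM at M2 and 4.62, 5.24, 2.49, 5.43 and 4.04 FPKM at M4 without overlap (limma adjusted p = 0.4602), and the median of the list was 0.28, or -0.00028 without M2-1 and M2-3.

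Of 16 clock genes, 2 (NR1D2 and TEF) were higher at M4 with an unadjusted p under 0.05 and 0 lower, against 3.95% and 4.72% of all genes, 12 of 16 were above 0, and the median log2 fold change was 0.40. NR1D2, the nuclear receptor REV-ERB beta, was at 13.6, 19.4, 16.1, 23.7 and 20.2 FPKM at M2 and 41.99, 27.7, 24.1, 25.1 and 23.97 FPKM at M4, with no overlap and M4-1 highest (log2 fold change 0.61, standard error 0.19, limma adjusted p = 0.495). TEF, a clock-controlled bZIP factor, was at 3.06 to 10.7 FPKM at M2 and 8.11 to 18.7 FPKM at M4. Without M2-1 and M2-3, 0 clock genes had an unadjusted p under 0.05 in limma, though the median was 0.42. The hour of sampling within the day was not given in the sources used here. Of 10 thyroid hormone genes, KLF9 was higher and TSHR, DIO3 and THRA were lower with an unadjusted p under 0.05. This was 10% higher and 30% lower, against 3.95% and 4.72% of all genes, and the median was -0.01. Without M4-1, M4-2 and M2-4, 1 member was higher and 0 lower at such a p. Without M2-1 and M2-3, 0 were higher and 1 lower. KLF9, a transcription factor induced by thyroid hormone and glucocorticoids, was at 11.8, 34.4, 26.2, 32.2 and 23.98 FPKM at M2 and 50.998, 28.7, 42.6, 47.5 and 63.9 FPKM at M4, where M4-2 overlapped with M2 (log2 fold change 0.90, standard error 0.30, limma adjusted p = 0.499). THRA, thyroid hormone receptor alpha, was at 20.3 ± 2.03 FPKM (SD, n = 5) at M2 and 16.2 ± 1.02 FPKM at M4. DIO3, which inactivates thyroid hormone, was at most 0.504 FPKM at M2 and listed at 0 in all M4 libraries, and TSHR, the thyrotropin receptor, was at most 0.416 FPKM in all 10 libraries.

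Of 8 thalamus markers, PRKCD, a protein kinase C, was lower at M4 with 5.07, 2.98, 4.22, 2.97 and 3.53 FPKM at M2 and 0.765, 1.49, 2.05, 1.602 and 2.37 FPKM at M4 and no overlap (log2 fold change -1.19, limma adjusted p = 0.499), although the summed thalamus markers were highest in M4-2. PRKCD was the only 1 of the 8 with an unadjusted p under 0.05 (12.5%, against 4.72% lower over all genes). In the fit without M4-1, M4-2 and M2-4, 0 thalamus markers had such a p, and without M2-1 and M2-3, 1 had one. No member of the cortex list (6 tested, median 0.32) or the striatum list (8 tested, median -0.43) had an unadjusted p under 0.05. Without M4-1, M4-2 and M2-4 these medians were -0.66 and -0.25, and that of the thalamus list moved from 0.28 to -0.21. The 16 genes of presynaptic release had a median of 0.29 and no member at an unadjusted p under 0.05. SNAP25, a core protein of vesicle fusion, was at 68.1, 625, 239, 515 and 373 FPKM at M2 and 1562, 571, 369.9, 403 and 662 FPKM at M4, so M2-1 was lowest and M4-1 highest, and its log2 fold change of 1.10 was 0.76 without M4-1. The median of the presynaptic list was -0.02 without the 3 libraries highest in cortex, striatum and thalamus markers. Glutamate genes (0.03, 22 tested), GABA genes (0.33, 21 tested), monoamine genes (-0.21, 9 tested), genes of immature neurons (0.42, 9 tested) and immediate early genes (0.24, 15 tested) had the medians given and no member at an unadjusted p under 0.05. Without M4-1, M4-2 and M2-4 the median turned to -0.24 for immature neurons, -0.25 for immediate early genes, -0.17 for glutamate genes and 0.66 for monoamine genes, and without M2-1 and M2-3 it turned to -0.15 for GABA genes.

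In the Notch pathway, JAG1, a ligand, and NRARP, a feedback inhibitor, were lower at M4 with log2 fold changes of -0.64 and -0.69 (limma adjusted p = 0.509 and 0.515), among 15 tested with a median of -0.25. These 2 had an unadjusted p under 0.05 (13.3%, against 4.72% lower over all genes). Without M4-1, M4-2 and M2-4, 1 member had such a p, and without M2-1 and M2-3, 0 had one. Of 20 cell cycle genes, MCM7, a replication helicase subunit, and TOP2A, a topoisomerase of dividing cells, were lower at -0.53 and -1.21, and the median was -0.09. These 2 had an unadjusted p under 0.05 (10%, against 4.72% lower over all genes). Without M4-1, M4-2 and M2-4, 0 members had such a p, and without M2-1 and M2-3, 2 had one. Of 71 genes of cytosolic ribosomal proteins tested, RPL36 and RPS29 were lower at -0.89 and -0.86 with an unadjusted p under 0.05, a share below the 4.72% of all genes, 64 of 71 were below 0, and the median was -0.26. Nuclear genes of the respiratory chain were those with symbols starting in NDUF or ATP5, mostly of complex I and ATP synthase. They had 0 of 54 members at an unadjusted p under 0.05 and a median of 0.15. Of the 13 mitochondrially encoded genes, ATP8, a subunit of ATP synthase whose gene overlaps that of ATP6, was higher at 0.88 (limma adjusted p = 0.509), and the median was -0.08. SRD5A1, the 5-alpha reductase that makes neurosteroids, was at 8.96, 10.1, 11.5, 16.4 and 15.7 FPKM at M2 and 20.1, 27.1, 21.5, 15.9 and 14.2 FPKM at M4 (log2 fold change 0.66, limma adjusted p = 0.509), the only 1 of 6 steroid enzymes tested with an unadjusted p under 0.05 (median -0.13). MBD2, a reader of DNA methylation, was higher at 0.50 among 11 genes of DNA methylation (median -0.06). Of 7 lymphocyte genes tested, 1 was higher at an unadjusted p under 0.05 and the median was -0.43. Such a p with a higher value at M4 was found for 3.95% of all genes. It was found for 7.69% of mitochondrially encoded genes, 16.7% of steroid enzymes, 9.09% of DNA methylation genes and 14.3% of lymphocyte genes, 1 member each. Without M2-1 and M2-3, 0 steroid enzymes and 0 DNA methylation genes had such a p. Genes of cholesterol synthesis (0.06, 20 tested), interferon response (0.16, 13 tested), squamous epithelium (0.32, 3 tested) and skeletal muscle (-0.02, 5 tested) had no member at an unadjusted p under 0.05. In the fit without M4-1, M4-2 and M2-4, 2 interferon genes were higher at such a p, and the median of that list was 0.60. One without M2-1 and M2-3 had 1 squamous epithelium gene lower at such a p.

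**Figure D5:**
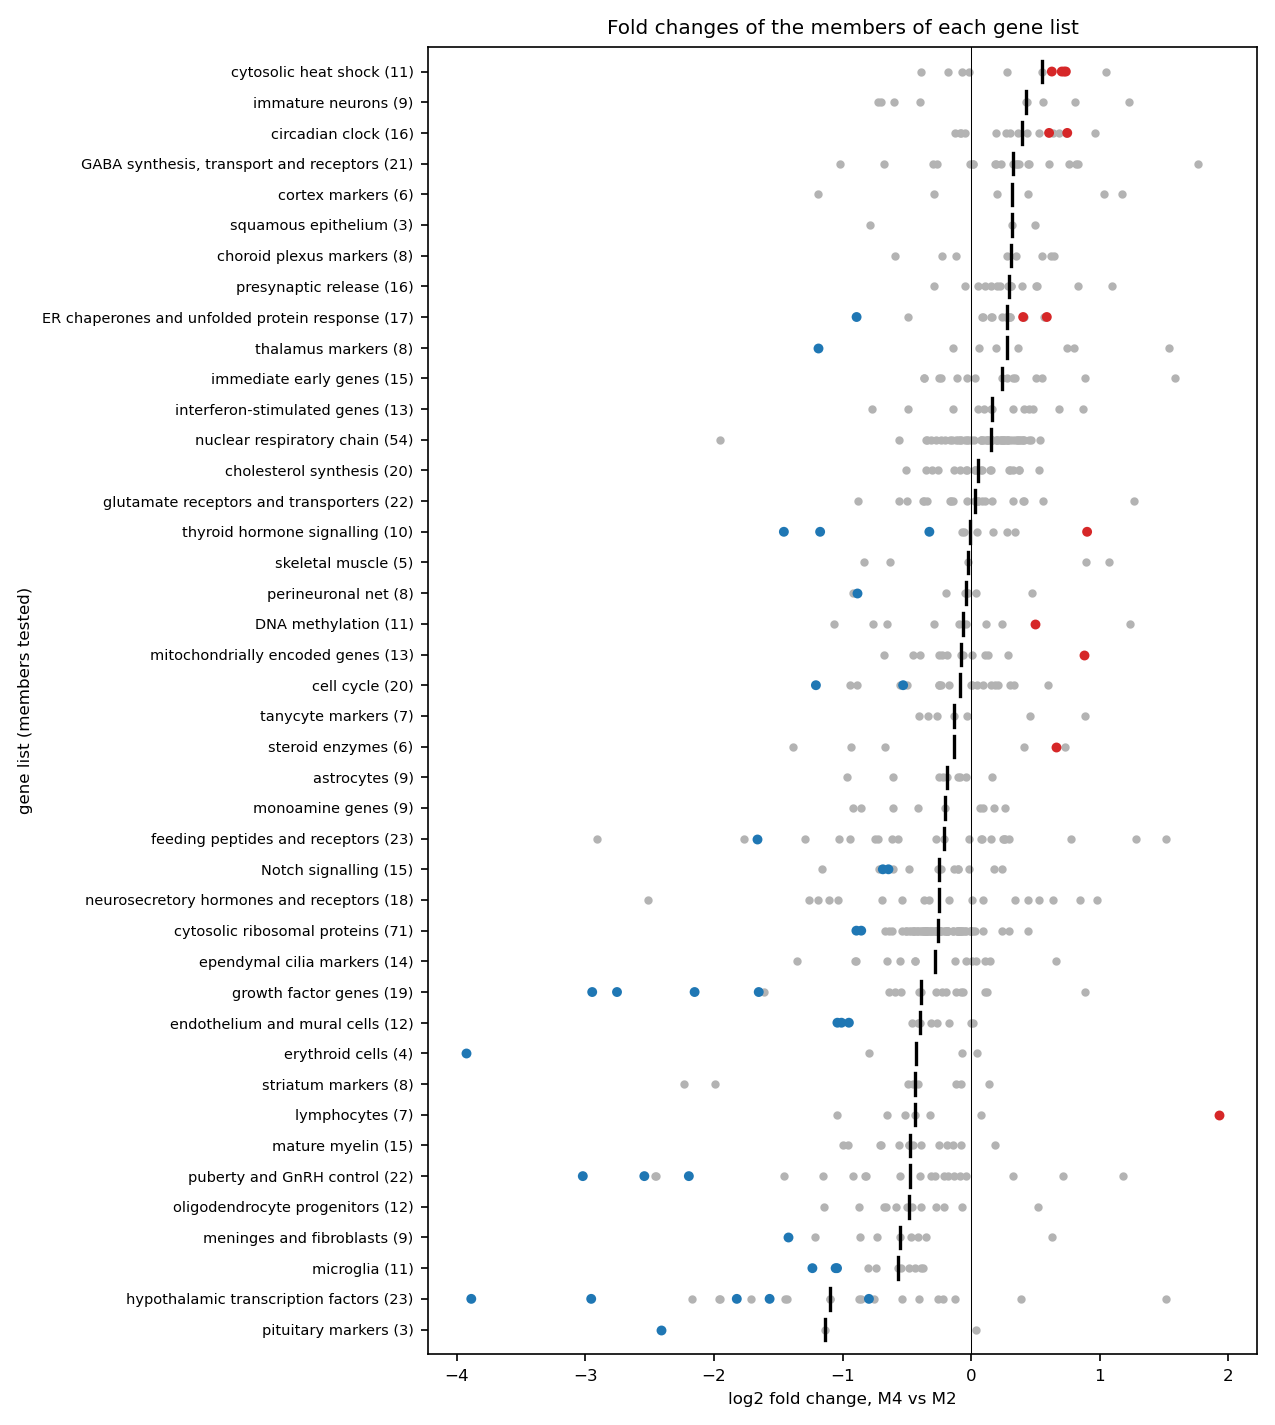
Log2 fold change in M4 vs. M2 (horizontal) of each tested member of the 42 gene lists (rows, with the number tested), with members at an unadjusted p under 0.05 in red where higher and blue where lower at M4 and the median as a black line. Medians range from -1.14 for the 3 pituitary markers to 0.55 for the 11 heat shock genes, and 20 of the 42 lists hold no coloured point.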

How the data were processed

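Total RNA from the hypothalamus of 20 goats, 5 per stage, was depleted of rRNA and sequenced as strand-specific libraries. The authors aligned the reads to the goat genome ARS1.2 with HISAT2 2.0.5 and computed FPKM per gene with StringTie 1.3.3b, and the deposited FPKM table of 21071 genes was used. FPKM holds no read counts, so the number of reads behind a value is unknown, and a gene whose exons share reads with a near copy may be split. Each library is a separate goat, and libraries were grouped by the stage in their labels. Positions and symbols came from the RefSeq gene table of ARS1.2, which matched 20610 genes.

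Values were taken as log2(FPKM + 0.1), which understates the fold changes of low genes. The 16771 genes that reached 0.1 FPKM in 5 or more of the 20 libraries entered a limma 3.58.1 fit (R 4.3.3) with 4 stages as groups and a trended prior, and p-values were adjusted by Benjamini-Hochberg over all of them. DEGs had to pass an adjusted p of 0.05 and a log2 fold change of 1 in size. Named genes were the DEGs or, where a direction had fewer than 12, the genes with a symbol, a mean of at least 1 FPKM and the smallest unadjusted p, up to 12 per direction, beside the members of the 42 gene lists with the smallest p and a set of neuroendocrine genes. Some members of these lists are not reported here by name. The members and lists were chosen with earlier results of these data known. Library measures were compared by two-sided exact permutation tests (scipy 1.17.1). The fit was checked on simulated data. Tables were handled with pandas 2.3.3 and numpy 2.4.6 in Python 3.11.15, and figures were drawn with matplotlib 3.10.9. Alternatives were another pseudocount, other filters, scalings, variance models and library weights, a replicate block, a covariate for the mapping rate (from the alignment statistics of the study), and fits without single libraries or sets of libraries.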

Additional observations from a re-analysis of the deposited data

Results flagged for a closer look

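In 224 groups of 5 values (the named genes, the marker sums and the library measures of each stage), 23 had 1 library farther from the others than Dixon's 95% limit for 5 samples (0.71), on the log2(FPKM + 0.1) scale for genes and sums. Chance alone sets apart about 1 in 20 such groups, and 7 of the 23 lay in M4-1.

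Among the M4 libraries, M4-1 was far above the other 4 for PRUNE2 (25.4 FPKM), NR1D2 (42.0 FPKM), HSP90AB1 (123 FPKM), DNAJA1 (272 FPKM) and the summed cortex markers (195 FPKM). M4-4 was above the others for OXT (86.3 FPKM) and AVP (392 FPKM), and M4-2 for TRH (20.7 FPKM) and the summed thalamus markers (266 FPKM). RPS29 was low in M4-3 (108 FPKM). Where the other 4 M4 libraries were at or near 0, a low value in 1 library was enough to stand apart, as for CGA (0.134 FPKM) and NTF3 (0.0410 FPKM) in M4-1, and for ISL1 (0.0461 FPKM), LHX8 (0.0443 FPKM), TSHR (0.138 FPKM) and KISS1 (0.0735 FPKM) in M4-5.

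Among the M2 libraries, M2-1 was low for GORASP2 (3.16 FPKM) and high for IL1B (10.4 FPKM). M2-2 was low for JAG1 (2.97 FPKM). M2-3 was high for COL3A1 (45.9 FPKM), the summed genes of meninges and fibroblasts (329 FPKM) and the share of FPKM held by its most abundant gene (23.9%). M2-4 was low for ORAI3 (1.40 FPKM).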

How the results depend on the processing

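Across 23 alternative fits, the 24 leading genes had an unadjusted p under 0.05 wherever they were tested. They were chosen by their small p in the same libraries, so these fits do not test them separately. In these fits, 87 of 93 named genes had 1 direction throughout. Of 42 list medians, 37 moved by less than 1 SD between goats, though only 17 of the 42 had the same sign in each. DEGs numbered 0 with the adjusted p alone, 1 at a pseudocount of 1 and 1 without the 3 libraries high in cortex, striatum or thalamus markers (an alternative chosen after seeing the data), each lower at M4, and 0 to 3 when 1 library was left out, with 3 without M2-5. Genes with an unadjusted p under 0.05 numbered 854 (313 higher) with only the M2 and M4 libraries, 628 (206 higher, 422 lower) without the 2 M2 libraries of low mapping rate, and 930 to 2025 (336 to 1025 higher, 585 to 1000 lower) when 1 library was left out. The higher genes numbered 432 without M2-1, 336 without M2-3 and 1025 without M2-4.

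The replicate numbers did not pair the goats: same-numbered M2 and M4 libraries had correlations of their deviations from -0.19 to 0.10, 0 of 5 pairs over 0.1, and 0 M2 libraries correlated best with their own number. With the replicate block, 0 genes were DEGs and 628 were higher and 773 lower at an unadjusted p under 0.05, and with the replicate block and the mapping rate 0 were DEGs and 924 had such a p, 346 of them higher.

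The median of hypothalamic transcription factors was -0.39 at a pseudocount of 1 and -1.57 among genes with a mean of at least 1 FPKM, where those of erythroid cells (-1.94), skeletal muscle (-0.83) and steroid enzymes (-0.93) also moved. Without the 2 M2 libraries of low mapping rate, the medians of skeletal muscle (0.86) and heat shock genes (0.048) moved. Directions turned for CLDN11 (0.22) and PDYN (0.36) without the 3 regional libraries, for PDYN with quantile normalization (0.036), for OXT with median-ratio scaling (-0.024), and for ESR1 with library weights (0.86), the mapping rate (0.20), the block with the mapping rate (0.37), and without the 2 low-mapping (0.61) or the 3 regional libraries (0.63). Leaving out 1 library gave log2 fold changes of -0.96 to 0.79 for PDYN, -0.84 to 0.31 for ESR1, -1.89 to 0.85 for OXT, -0.79 to 0.55 for CRH and -1.20 to 1.34 for AVP, which was below 0 only without M4-4. The cause of these shifts was not tested. The read depth behind the values is unknown.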
